A study of Mus musculus with 8 samples.

Results

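Genomic imprinting was followed here through 34 mouse genes known to be expressed mainly from the maternal or the paternal copy in at least some tissues. Whether they are imprinted in the cells used here was not measured. The genes were taken by symbol from a count table of 55536 annotated genes. All 34 symbols were found, and 28 of them had enough reads to be tested. The cells were MIN6, an insulin-producing mouse beta cell line, labelled wild type, and every culture was transfected for 48 h with Lipofectamine 3000. The control group received the pcDNA 3 empty vector (4 libraries) and the other group received the pGloMyc-Klf4 plasmid (4 libraries), and polyadenylated RNA was sequenced. The design text calls the libraries of a group biological replicates, and each group has libraries 1 and 2 in batch 1 and libraries 3 and 4 in batch 2. The study asked how the transcriptome of these cells changes when Klf4 is made in excess. Klf4 is a zinc finger protein known from reprogramming and from epithelial differentiation. MIN6 is 1 line kept in culture, the transfection was transient and the share of cells that took up plasmid is not given, so each value averages transfected and untransfected cells. The plasmids also differ in backbone, and an effect of the backbone cannot be told apart from an effect of Klf4.

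In imprinting, DNA methylation laid down in the egg or sperm marks a control region, and that mark decides which parental copy of the neighbouring genes is read. Many imprinted genes lie in clusters that hold a long noncoding RNA and growth genes on opposite copies, with paternally expressed genes such as Igf2 often promoting growth and maternally expressed ones such as H19, Phlda2 and Cdkn1c often limiting it. In beta cells the Meg3 locus and the Cdkn1c locus are known for links to cell survival and to replication. The counts below sum both parental copies, so they show total RNA of a gene and carry no information on which copy was read. In a bulk sample, fewer cells expressing a gene and less RNA per cell cannot be told apart.

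The libraries held 45417853 to 52731176 counts in genes. Levels are given as CPM, counts per 1000000 counts in genes, with library totals scaled as described under data processing. Klf4 itself was at 42.8, 42.3, 39.1 and 36.1 CPM in control libraries 1 to 4 and 4873, 4532, 4903 and 5853 CPM in Klf4 libraries 1 to 4, a log2 fold change of 6.97 (SE 0.06, adjusted p = 1.21e-25). The exact permutation test over libraries gave p = 0.0286 (two-sided), the smallest that 4 against 4 allows. Of the labelled cell type, 8 beta cell markers summed to 24477 to 31259 CPM in control and 22913 to 31574 CPM in Klf4 libraries. Mafa, G6pc2 and Iapp were lower and none was higher. That is 37.5% lower, beside 15.5% of all genes tested and 34.8% of all genes at 100 CPM or more in control cells. Of markers of other cell types, those of fibroblasts summed to 2.61 to 3.82 and 5.44 to 6.97 CPM (Col1a1 and Pdgfra higher, Col1a2 not called, Lum at 0, Col3a1 at or under 3 counts per group), and those of ductal cells (Krt19 and Sox9) to 0.144 to 0.325 and 2.69 to 4.36 CPM. Endothelial markers summed to 3.82 to 4.15 and 4.49 to 4.95 CPM, with Cdh5 at 0 counts in control and 80 counts in Klf4 libraries, and macrophage markers to 5.63 to 6.23 and 5.48 to 7.16 CPM with none called. Acinar markers summed to 1.40 to 3.94 and 1.28 to 2.79 CPM. Those of delta and pancreatic polypeptide cells stayed at or under 0.276 CPM. Their part in the results below was not tested.

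Promoter sequence is shown for 4 genes on which the results turn: Ascl2 and Mest, which rose from under 1 CPM, and Peg3 and Kcnq1ot1, which fell and lie at the control regions of their clusters. The stretches come from the RefSeq promoter windows (build GRCm38.p6, 250 bases before to 50 after a start), cut to bases before the start that lie in no exon of the GENCODE M21 annotation. Capitals mark matches on either strand to GGGNGTGG in Ascl2 and Peg3 (a letter pattern of Klf4 binding sites), to TGCCGC in Mest (the pattern read by Zfp57, a guardian of imprints) and to CACCC in Kcnq1ot1 (the core box of the Kruppel-like factors). Each gene is shown with a pattern it holds. The 3 windows of Mest hold neither GGGNGTGG nor CACCC, and the window of Kcnq1ot1 holds no GGGNGTGG.
Ascl2, chr7:142969265-142969514, minus strand: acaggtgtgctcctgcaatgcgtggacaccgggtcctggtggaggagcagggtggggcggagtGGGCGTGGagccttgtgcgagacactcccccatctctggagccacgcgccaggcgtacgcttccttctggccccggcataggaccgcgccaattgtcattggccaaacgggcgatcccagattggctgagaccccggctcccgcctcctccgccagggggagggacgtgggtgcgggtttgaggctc
Mest, chr6:30737800-30738049, plus strand: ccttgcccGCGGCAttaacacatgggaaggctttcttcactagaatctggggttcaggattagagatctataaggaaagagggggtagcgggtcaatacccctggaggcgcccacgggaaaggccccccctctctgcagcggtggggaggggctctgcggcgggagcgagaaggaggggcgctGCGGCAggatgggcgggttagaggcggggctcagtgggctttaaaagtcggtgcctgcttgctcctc
Peg3, chr7:6730432-6730577, minus strand: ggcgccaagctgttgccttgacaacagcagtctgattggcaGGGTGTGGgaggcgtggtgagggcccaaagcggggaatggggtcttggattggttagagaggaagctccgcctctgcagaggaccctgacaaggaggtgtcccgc
Kcnq1ot1, chr7:143296550-143296797, minus strand: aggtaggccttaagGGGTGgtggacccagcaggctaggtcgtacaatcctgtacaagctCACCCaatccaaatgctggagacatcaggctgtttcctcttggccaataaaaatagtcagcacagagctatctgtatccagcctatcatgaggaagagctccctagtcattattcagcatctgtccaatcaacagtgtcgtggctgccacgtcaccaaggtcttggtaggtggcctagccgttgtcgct
The 250 bases of Ascl2 held 67.6% G and C and 19 CpG dinucleotides, and the 250 bases of Mest, which lie before the inner start of that gene, held 62.4% and 14. The 146 bases of Peg3 (61.6%, 5 CpG) are those between the Peg3 start on the minus strand and the Usp29 start on the plus strand, and the 300-base windows of that pair share 263 bases. The 248 bases of Kcnq1ot1 held 51.2% and 5 CpG. Of the imprinted genes, 28 of 34 had an entry in the promoter table, with 44 windows. GGGNGTGG was found in 11 of the 44 windows (25.0%) and in 17.6% of all 32851 windows. CACCC, whose reverse complement GGGTG is also part of GGGTGTGG, was found in 28 of 44 (63.6%) and in 57.5% of all windows. TGCCGC was found in 11 of 44 (25.0%) and in 11.6% of all windows. Windows of 1 gene can overlap, and a match describes letters only.

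In control cells the imprinted genes spanned a wide range of levels. Per kilobase of exon, Nnat (neuronatin, a small membrane protein known to aid the handling of preproinsulin) was highest at 886 ± 45.8 CPM per kb (SD, n = 4), followed by Slc38a4 (an amino acid transporter) at 225 ± 4.46, Gnas (the stimulatory G protein alpha subunit) at 121 ± 7.4 and Peg3 (a zinc finger protein) at 69 ± 3.08 CPM per kb. These 4 levels were separated by more than their spread. The noncoding RNAs of the Dlk1 to Dio3 cluster came next, Meg3 at 28.9 ± 3.08 and Rian at 21 ± 0.382 CPM per kb, and Impact at 15.3 ± 0.508 CPM per kb. At the other end, the tested genes H19, Rtl1, Phlda2, Mest, Ascl2 and Grb10 were each under 1 CPM in control cells. Together the 34 genes took 0.646% ± 0.0131 of all counts in control and 0.603% ± 0.0219 in Klf4 libraries (SD, n = 4), and 5 genes held 83.2% and 83.0% of those counts.

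**Figure D1:**
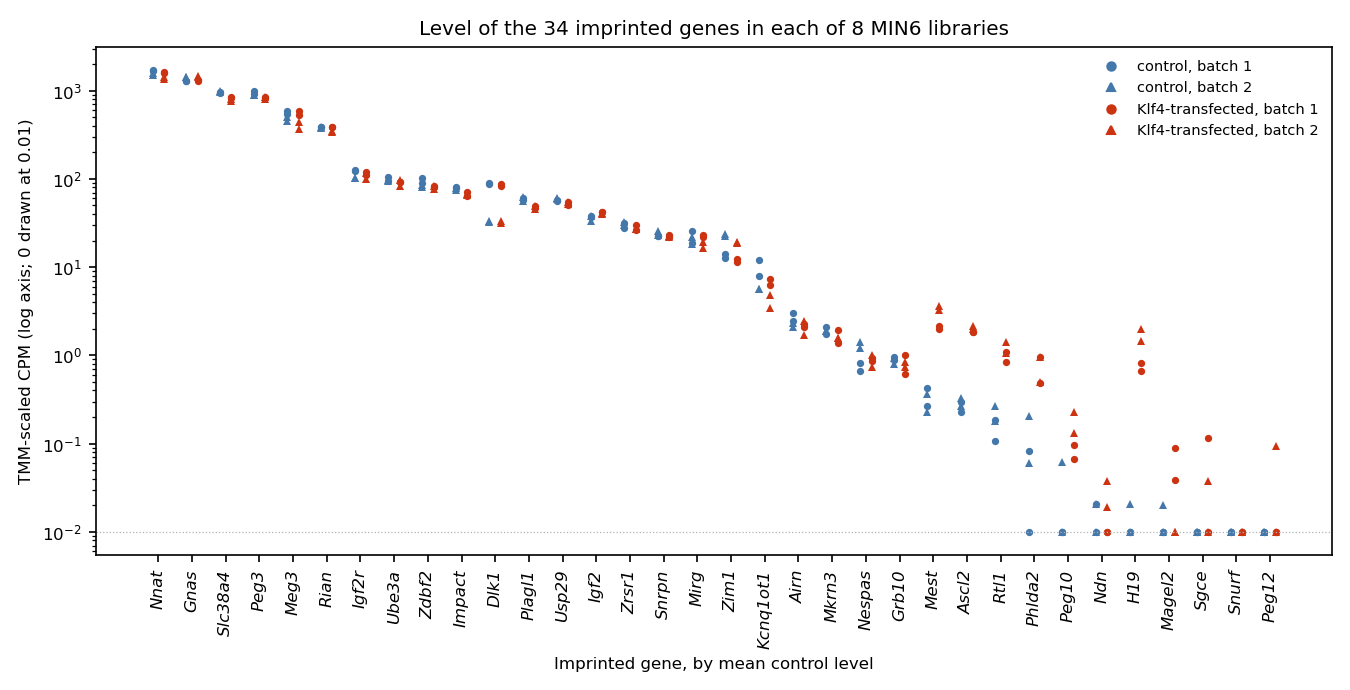
Level of each of the 34 imprinted genes in each of the 8 libraries, in CPM on a log axis, with control and Klf4 libraries in separate colours. The most abundant genes lie near 1000 CPM with both groups close together, while H19, Phlda2, Ascl2, Mest and Rtl1 lie under 1 CPM in control libraries and higher in the Klf4 libraries.

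With the Klf4 plasmid, H19, Mest, Phlda2, Ascl2, Rtl1 and Igf2 were higher, and 12 imprinted genes were lower, from Kcnq1ot1 with a log2 change of -0.52 to Ube3a with -0.11. In edgeR's quasi-likelihood fit with a batch term and Benjamini-Hochberg adjustment over all 18266 genes tested, 18 of the 28 tested imprinted genes passed an adjusted p of 0.05, 6 higher and 12 lower. Among all genes tested, 36.6% passed, 21.1% higher and 15.5% lower. The median log2 change was -0.12 over the 28 genes and -0.01 over all genes tested, and it stayed at -0.12 with H19 entered at its count ratio. Scaling the libraries on highly expressed genes alone gave 7 higher and 8 lower imprinted genes, beside 4387 higher and 1638 lower of all genes, where the main scaling gave 3856 and 2828. An offset for GC content and length gave 6 higher and 7 lower imprinted genes. Of the 28 genes, 25 reached the test's filter (10 counts in a library of median size, 0.204 CPM) in all 4 control libraries. H19, Phlda2 and Rtl1 reached it in all 4 Klf4 libraries only, so for these 3 the filter itself asked for a difference. Of the other 25, 15 passed, 3 higher (Igf2, Ascl2 and Mest) and 12 lower.

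By starting level, 17 tested imprinted genes were at 20 CPM or more in control cells, of which 1 rose and 10 fell, and of all 8166 such genes 27.7% fell. In all, 18.1% rose of the genes at 20 to 100 CPM and 12.9% of those at 100 CPM or more. Of the 3 genes under 1 CPM that reached the filter in the controls, Ascl2 and Mest rose and Grb10 did not pass the test. Of all 4513 tested genes under 1 CPM in control cells, whether or not they reached it there, 29.4% were higher and 1.17% lower. The control and Klf4 libraries did not overlap in CPM in 11 of the 28 tested imprinted genes, or 8 of 25 without H19, Phlda2 and Rtl1, and in 26.1% of all genes tested. All 18 called genes had the same direction in both batches. The calls come from the fit to these same batches, so this agreement is largely built in and is no further support.

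**Figure D2:**
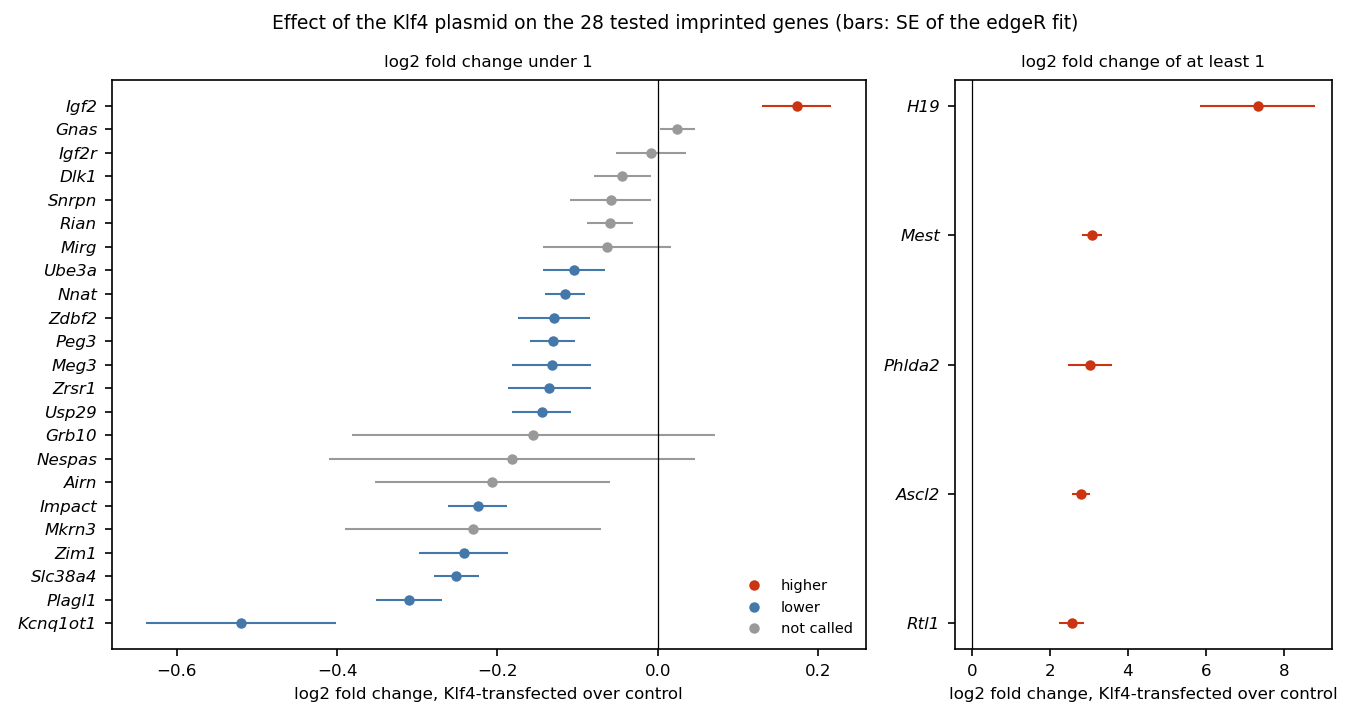
Log2 fold change of Klf4-transfected over control cells for the 28 tested imprinted genes, with bars for the SE of the edgeR fit. H19, Mest, Phlda2, Ascl2 and Rtl1 lie between 2.56 and 7.33, and the lower genes lie between -0.52 and -0.11.

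The cluster on distal chromosome 7 runs over 1181 kb from H19 to Osbpl5 and joins an Igf2 and H19 domain to a Kcnq1ot1 domain. Of its 16 genes (5 of the 34 and 11 from a list of other imprinted genes), 15 were tested, 9 rose, 2 fell and 4 did not pass the test, beside 21.1% higher and 15.5% lower of all genes tested. Among the 9, H19 and Tspan32 reached the filter in the Klf4 libraries only, and Phlda2 in those and 1 control library. For H19, Tspan32 and Phlda2 the filter itself asked for a difference. Slc22a18 was under it in control library 3, at 0.162 CPM, and entered with the help of its Klf4 libraries. H19 (chr7:142575529-142578143, minus strand, GRCm38), a maternally expressed long noncoding RNA, was at 0, 0, 0 and 1 counts in control libraries 1 to 4 and 42, 30, 77 and 104 counts in Klf4 libraries 1 to 4. All 4 Klf4 libraries lay above all controls, where a single count was seen. The summed counts of 1 and 253, scaled by library totals, give a ratio of 242 (exact 95% interval 43.0 to 9588, counting error only), and the fitted log2 change was 7.33 (SE 1.47, adjusted p = 1.49e-10). Its Klf4 libraries were higher in batch 2 than in batch 1, and the batch term of H19 was 1.23 (SE 0.33, adjusted p = 0.00839).

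Igf2 (chr7:142650766-142666816, minus strand), the growth factor made from the opposite parental copy, was at 36.8, 37.9, 38.3 and 33.5 CPM in control libraries 1 to 4 and 42.3, 42.2, 39.5 and 41.2 CPM in Klf4 libraries 1 to 4. The Klf4 libraries were all above the controls by a small margin. The mean went from 36.6 ± 2.2 to 41.3 ± 1.31 CPM (SD, n = 4), a log2 change of 0.17 (SE 0.04, adjusted p = 0.00309), with 0.17 in batch 1 and 0.18 in batch 2. Exons of Igf2 overlap the antisense gene Igf2os and Gm49394 over 64.5% of their length, and Igf2os changed by 0.28 (adjusted p = 0.000254). The strand setting of the counting is not given in the sources used here, so reads of Igf2 and Igf2os cannot be told apart.

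Ascl2 (chr7:142966829-142969264, minus strand), a maternally expressed basic helix-loop-helix factor of the trophoblast and of intestinal stem cells, was at 14, 11, 13 and 16 counts in control libraries 1 to 4 and 95, 84, 104 and 114 counts in Klf4 libraries 1 to 4. All Klf4 libraries lay above all controls. Its mean went from 0.28 ± 0.0452 to 1.96 ± 0.149 CPM (SD, n = 4), 7-fold, with a log2 change of 2.80 (SE 0.24, adjusted p = 4.09e-10) and 2.80 in batch 1 and 2.80 in batch 2. Phlda2 (chr7:143501545-143503150, minus strand), a maternally expressed pleckstrin homology protein that limits placental growth, was at 0, 4, 3 and 10 counts in control libraries 1 to 4 and 50, 22, 26 and 50 counts in Klf4 libraries 1 to 4. It was higher in every Klf4 library than in any control, with a log2 change of 3.03 (SE 0.56, adjusted p = 3.08e-05) and 4.05 in batch 1 and 2.42 in batch 2.

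Kcnq1ot1 (chr7:143203458-143296549, minus strand), the paternally expressed noncoding RNA that silences its neighbours in cis, went the other way. It was at 7.99, 12.1, 5.72 and 5.72 CPM in control libraries 1 to 4 and 6.27, 7.36, 3.46 and 4.82 CPM in Klf4 libraries 1 to 4. The groups overlap when the batches are pooled. The batch 1 libraries were higher in both groups, and within each batch both Klf4 libraries lay below both controls. The log2 change was -0.52 (SE 0.12, adjusted p = 0.00129), with -0.57 in batch 1 and -0.46 in batch 2. Without control library 2, the highest of the 8, it was -0.38 (adjusted p = 0.00704), without the batch term its adjusted p was 0.191, and with the GC and length offset it was -0.33 (adjusted p = 0.0292).

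Of the neighbours from the other list, Tspan32, a tetraspanin of blood cells, rose from 3 to 129 counts over the 4 libraries of a group, a ratio scaled by library totals of 41.1 (counting interval 13.8 to 202, adjusted p = 1.14e-07). Slc22a18, a maternally expressed organic cation transporter-like protein, was at 0.744, 0.534, 0.162 and 0.249 CPM in control libraries 1 to 4 and 7.51, 6.41, 8.42 and 9.12 CPM in Klf4 libraries 1 to 4, with a log2 change of 4.22 (SE 0.27, adjusted p = 2.78e-13). Its change was smaller in batch 1 (3.44) than in batch 2 (5.41), and the interaction of plasmid and batch was 1.96 (adjusted p = 0.00648). Cd81, Cdkn1c and Osbpl5, named for their place in the cluster after their values were seen, also rose. Cd81, a tetraspanin, changed by 0.74 (SE 0.06, adjusted p = 2.58e-09), Cdkn1c, the maternally expressed cell cycle inhibitor p57, by 0.66 (SE 0.10, adjusted p = 1.63e-05), and Osbpl5, a lipid transfer protein, by 0.28 (adjusted p = 0.00121). Th, tyrosine hydroxylase, named in the same way, fell by 0.10 on the log2 scale (adjusted p = 0.0118), a call lost with scaling on highly expressed genes (adjusted p = 0.12). Ins2, Tssc4, Nap1l4 and Tnfrsf23 did not pass the test, and Kcnq1 was not tested.

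**Figure D3:**
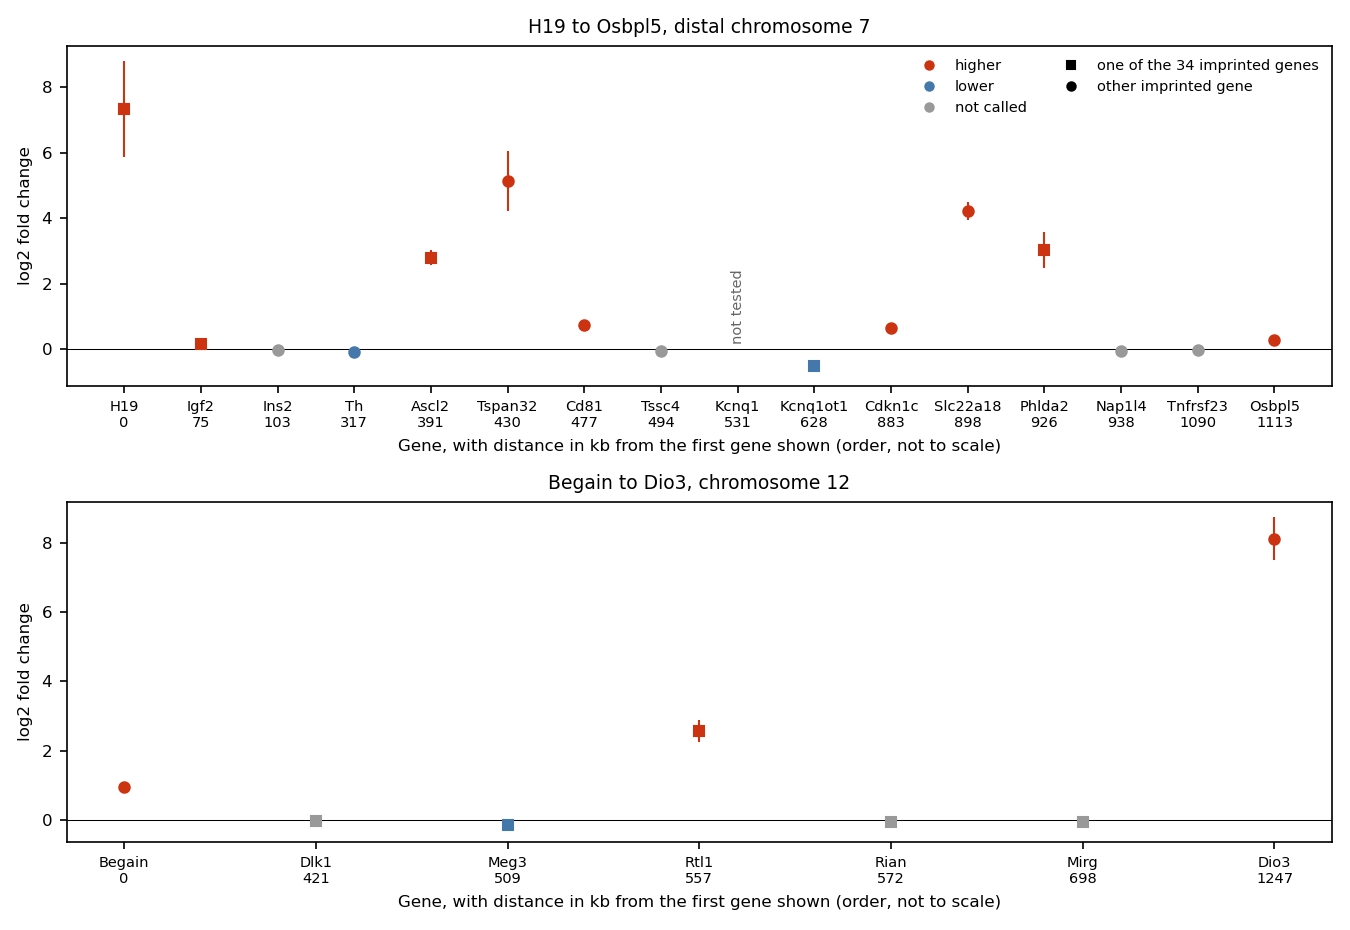
Log2 fold change with SE for genes of the distal chromosome 7 cluster and of the chromosome 12 cluster, in their order along the chromosome, with distance in kb from the first gene under each name. In the distal chromosome 7 panel 9 genes lie above 0 past the threshold and Kcnq1ot1 lies below 0 at -0.52, and in the chromosome 12 panel Dio3 lies highest at 8.13.

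The cluster on chromosome 12 runs over 1249 kb from Begain to Dio3. Its noncoding RNAs, read from the maternal copy in a single direction, were abundant, and their log2 changes lay between -0.13 and -0.06. Meg3 (chr12:109541001-109571726, plus strand) was at 589, 541, 458 and 501 CPM in control libraries 1 to 4 and 529, 587, 371 and 436 CPM in Klf4 libraries 1 to 4. The groups overlap, also within batch 1. The log2 change was -0.13 (SE 0.05, adjusted p = 0.0399), with -0.02 in batch 1 and -0.24 in batch 2. The call was lost in 10 of 19 other settings, among them without control library 3, control library 4, Klf4 library 1 or Klf4 library 3 (adjusted p = 0.0523 to 0.153). It held within batch 2 alone (adjusted p = 0.000337) and not within batch 1 alone (adjusted p = 0.771). Rian, the host of box C/D small nucleolar RNAs, averaged 383 ± 6.97 CPM in control and 368 ± 25 CPM in Klf4 libraries (SD, n = 4), with a log2 change of -0.06 (adjusted p = 0.116). Mirg, a microRNA host, averaged 21.1 ± 3.31 CPM in control and 20.2 ± 2.93 CPM in Klf4 libraries (SD, n = 4), with a log2 change of -0.06 (adjusted p = 0.591). Neither passed in this fit. Rian passed without control library 1 or 2 (-0.09 in both fits), with no filter on low counts (-0.07, adjusted p = 0.0431) and in batch 2 alone (-0.12, adjusted p = 0.0159), and turned to 0.06 with the GC and length offset, and Mirg passed without control library 2 (-0.18, adjusted p = 0.0236).

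The protein-coding genes of that cluster are read from the paternal copy. Dlk1 (chr12:109452823-109463336, plus strand), a membrane protein related to Notch ligands, was at 90.4, 88.4, 32.7 and 33.2 CPM in control libraries 1 to 4 and 86.6, 83.8, 31.7 and 33.6 CPM in Klf4 libraries 1 to 4. The libraries separate by batch. The plasmid term, -0.04 (SE 0.04, adjusted p = 0.362), did not pass the test. Rtl1 (chr12:109589193-109600330, minus strand), a retrotransposon-derived protein of the placenta and muscle, was at 5, 9, 9 and 13 counts in control libraries 1 to 4 and 57, 38, 74 and 56 counts in Klf4 libraries 1 to 4. Every Klf4 library was above every control, with a log2 change of 2.56 (SE 0.32, adjusted p = 2.88e-07) and 2.71 in batch 1 and 2.45 in batch 2. Exons of Rtl1 overlap microRNA genes, most of them antisense, over 8.4% of their length. At the far end, Dio3, which inactivates thyroid hormone, was at 4, 0, 0 and 3 counts in control libraries 1 to 4 and 506, 420, 603 and 677 counts in Klf4 libraries 1 to 4, a log2 change of 8.13 (SE 0.62, adjusted p = 9.16e-18), and at the near end Begain rose from 1.92 to 3.68 CPM, a log2 change of 0.95 (adjusted p = 1.01e-05). The cluster thus held 3 higher, 1 lower and 3 genes that did not pass the test, out of 7, beside 21.1% higher and 15.5% lower of all genes tested. Of the 3 higher, Dio3 reached the filter in the Klf4 libraries only, and Rtl1 in those and 1 control library. For both the filter itself asked for a difference.

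**Figure D4:**
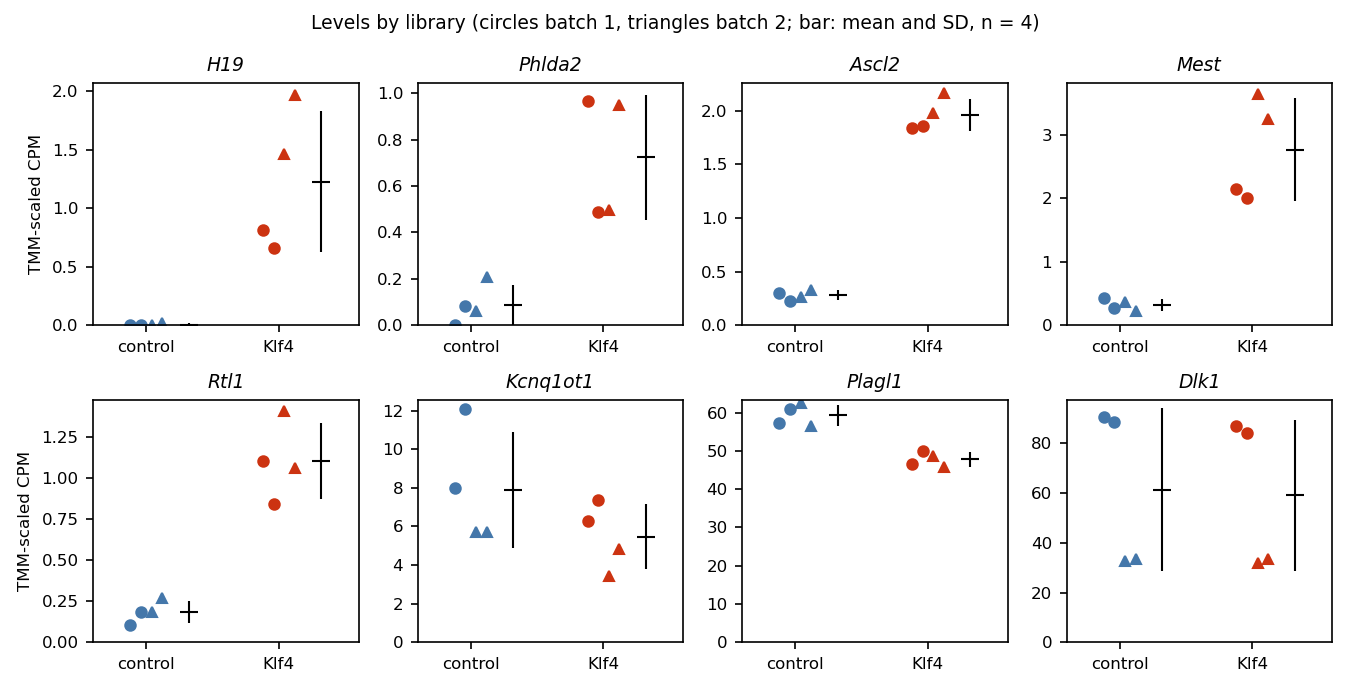
CPM in every library of selected imprinted genes, on linear axes that start at 0, with circles for batch 1, triangles for batch 2, and bars for the mean and SD (n = 4). H19, Phlda2, Ascl2, Mest and Rtl1 are higher in every Klf4 library than in any control, Plagl1 is lower in every one, and Dlk1 separates by batch.

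On chromosome 6, Mest (chr6:30723547-30748465, plus strand), a paternally expressed hydrolase-fold protein of mesoderm and growing fat, was at 20, 13, 18 and 11 counts in control libraries 1 to 4 and 111, 91, 192 and 172 counts in Klf4 libraries 1 to 4. Every Klf4 library lay above every control. The mean went from 0.321 ± 0.09 to 2.77 ± 0.813 CPM (SD, n = 4), 8.62-fold, with a log2 change of 3.08 (SE 0.25, adjusted p = 1.47e-10) and 2.58 in batch 1 and 3.54 in batch 2. Exons of Mest overlap Copg2 over 23.1% of their length, and Copg2 changed by -0.03 (adjusted p = 0.57). Further up the chromosome lie Peg10 and Sgce, which were not tested. Peg10, a retrotransposon-derived placental gene, was at 0, 0, 0 and 3 counts in control libraries 1 to 4 and 5, 3, 12 and 7 counts in Klf4 libraries 1 to 4, a ratio of summed counts, scaled by library totals, of 8.60 (counting interval 2.65 to 44.3). Sgce, a dystrophin-linked sarcoglycan, was at 0 in all controls and at 6, 0, 2 and 0 counts in the Klf4 libraries. Calcr, the calcitonin receptor gene in the same region, rose from 1 to 105 counts, a scaled ratio of 100.4 (counting interval 17.6 to 4001, adjusted p = 1.49e-07). Calcr reached the filter in the Klf4 libraries only, so the filter itself asked for a difference. Of the 9 imprinted genes listed from Calcr to Asb4, 5 were tested. Of these 1 rose and 4 did not pass the test, beside 21.1% higher of all genes tested.

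The Peg3 cluster on proximal chromosome 7 holds 3 of the 34 genes, and all 3 fell, beside 15.5% lower of all genes tested. By control level, 34.8% of all genes at 100 CPM or more fell (the level of Peg3). The share was 24.7% at 20 to 100 CPM (Usp29) and 9.22% at 1 to 20 CPM (Zim1). Peg3 (chr7:6703892-6730431, minus strand), a paternally expressed zinc finger protein, was at 905, 981, 900.2 and 893 CPM in control libraries 1 to 4 and 834, 858, 857 and 809.6 CPM in Klf4 libraries 1 to 4. No Klf4 library reached the lowest control, though the gap was small. The mean went from 919.7 ± 41 to 839 ± 22.7 CPM (SD, n = 4), with a log2 change of -0.13 (SE 0.03, adjusted p = 0.000695) and -0.16 in batch 1 and -0.09 in batch 2. Usp29, a paternally expressed deubiquitinase gene that starts beside it on the other strand, was at 56.1, 57.8, 58.7 and 61.4 CPM in control libraries 1 to 4 and 50.8, 54.2, 54.7 and 51.9 CPM in Klf4 libraries 1 to 4, a log2 change of -0.14 (SE 0.04, adjusted p = 0.00342). Its groups were also apart, by less than 2 CPM at the nearest libraries. With the GC and length offset the change was -0.06 (adjusted p = 0.254) and the call was lost, as in batch 1 alone (adjusted p = 0.0779), and that of Peg3 was -0.07 (adjusted p = 0.0141). Zim1, a maternally expressed zinc finger gene, was at 12.8, 14, 22.8 and 23.4 CPM in control libraries 1 to 4 and 11.4, 12.3, 18.6 and 19.1 CPM in Klf4 libraries 1 to 4. Batch 2 was higher than batch 1 in both groups, and the pooled groups overlap, while within each batch the Klf4 libraries were lower. Its log2 change was -0.24 (SE 0.06, adjusted p = 0.00141), with the call lost in batch 1 alone (adjusted p = 0.13) and without the batch term (adjusted p = 0.491). Zim3 and Zfp264, also in this cluster, were not tested.

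Several imprinted genes that stand apart from the large clusters fell as well. Plagl1 (chr10:13060504-13131694, plus strand), a paternally expressed zinc finger factor of transient neonatal diabetes, was at 57.2, 60.9, 62.4 and 56.5 CPM in control libraries 1 to 4 and 46.7, 49.9, 48.8 and 45.8 CPM in Klf4 libraries 1 to 4. The groups did not overlap. The mean went from 59.2 ± 2.85 to 47.8 ± 1.87 CPM (SD, n = 4), with a log2 change of -0.31 (SE 0.04, adjusted p = 1.96e-06) and -0.30 in batch 1 and -0.32 in batch 2. Slc38a4 (chr15:96994820-97055956, minus strand) was at 938, 966, 954 and 983 CPM in control libraries 1 to 4 and 836, 829, 806 and 757 CPM in Klf4 libraries 1 to 4, again with no overlap, and its log2 change was -0.25 (SE 0.03, adjusted p = 1.76e-07). Impact, a paternally expressed regulator of the Gcn2 translation response on chromosome 18, was at 78.3, 81.3, 75.1 and 79.6 CPM in control libraries 1 to 4 and 64.1, 70.9, 66.1 and 68 CPM in Klf4 libraries 1 to 4. All 4 Klf4 libraries were below all controls, and the log2 change was -0.22 (SE 0.04, adjusted p = 3.09e-05). Zdbf2, a paternally expressed zinc finger gene on chromosome 1, went from 89 ± 9.94 to 81.2 ± 2.76 CPM (SD, n = 4), a log2 change of -0.13 (SE 0.04, adjusted p = 0.0268), with -0.23 in batch 1 and -0.02 in batch 2. Its call was lost without control library 2, Klf4 library 1, Klf4 library 2 or Klf4 library 4 (adjusted p = 0.0563 to 0.0839), and with the GC and length offset (-0.05, adjusted p = 0.312). Zrsr1 is a paternally expressed splicing factor gene within Commd1, and its exons overlap those of Commd1 over 9.17% of their length. Zrsr1 went from 30.4 ± 1.98 to 27.7 ± 1.4 CPM (SD, n = 4), a log2 change of -0.14 (SE 0.05, adjusted p = 0.0452). That call was lost with the replicate number as a block (adjusted p = 0.0721) and without control library 1, control library 4, Klf4 library 1, Klf4 library 3 or Klf4 library 4 (adjusted p = 0.0683 to 0.133).

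On chromosome 2, Nnat was at 1709, 1666, 1587 and 1520.2 CPM in control libraries 1 to 4 and 1572, 1636, 1371 and 1413 CPM in Klf4 libraries 1 to 4. The pooled groups overlap, and within each batch the Klf4 libraries were lower, with a log2 change of -0.12 (SE 0.03, adjusted p = 0.000949). The call was lost in batch 1 alone (adjusted p = 0.0652) and without the batch term (adjusted p = 0.215). Gnas was at 1296, 1278, 1439 and 1418 CPM in control libraries 1 to 4 and 1323, 1299.6, 1439.7 and 1459 CPM in Klf4 libraries 1 to 4, a log2 change of 0.02 (adjusted p = 0.431), and it passed, at a higher level, only with scaling on highly expressed genes among the 19 other settings. Nespas, an antisense RNA of that locus, averaged 1.02 ± 0.339 CPM in control and 0.884 ± 0.112 CPM in Klf4 libraries (SD, n = 4), with a log2 change of -0.18 (adjusted p = 0.587). Exons of Nespas overlap other genes over 38.5% of their length, the far more abundant Gnas on the other strand among them. As the strand setting of the counting is not given, reads of Nespas and Gnas cannot be told apart there.

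In the Prader-Willi and Angelman cluster of central chromosome 7, little RNA came from several genes. Ube3a, the ubiquitin ligase of Angelman syndrome, went from 98.3 ± 4.57 to 91.4 ± 5.23 CPM (SD, n = 4), a log2 change of -0.11 (SE 0.04, adjusted p = 0.0374). The call was lost without control library 2, control library 4, Klf4 library 1, Klf4 library 2 or Klf4 library 4 (adjusted p = 0.0506 to 0.153). Its exons overlap other genes over 27.3% of their length, the antisense host RNA Snhg14 among them, and with an offset for GC content and length its change was 0.01. Snhg14, named after its values were seen, fell from 12.3 to 9.91 CPM, a log2 change of -0.31 (adjusted p = 0.000762), and with the same offset it was -0.16 (adjusted p = 0.112). Snrpn, a spliceosomal protein, was at -0.06 (adjusted p = 0.406) on the log2 scale, and Mkrn3, a zinc finger ubiquitin ligase that restrains puberty, at -0.23 (adjusted p = 0.285). Neither passed the test. Ndn was at 0, 1, 0 and 1 counts in control libraries 1 to 4 and 0, 0, 1 and 2 counts in Klf4 libraries 1 to 4, Magel2 at 0, 0, 1 and 0 counts in control libraries 1 to 4 and 2, 4, 0 and 0 counts in Klf4 libraries 1 to 4, and Peg12 at 0 except for 5 counts in Klf4 library 4. Snurf was at 0 counts in all 8 libraries. Its exons lie wholly within those of Snrpn and Gm38393, so reads of these genes cannot be told apart.

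Igf2r on chromosome 17, the maternally expressed receptor that clears Igf2, averaged 113 ± 12.7 CPM in control and 112 ± 8.75 CPM in Klf4 libraries (SD, n = 4), a log2 change of -0.01 (SE 0.04, adjusted p = 0.909), and its sign turned in 6 of 19 other settings. Airn, the noncoding RNA read across it from the paternal copy, averaged 2.46 ± 0.385 CPM in control and 2.13 ± 0.304 CPM in Klf4 libraries (SD, n = 4), with a log2 change of -0.21 (SE 0.15, adjusted p = 0.3). Grb10 on chromosome 11, an adaptor that dampens insulin signalling, averaged 0.895 ± 0.0756 CPM in control and 0.8 ± 0.164 CPM in Klf4 libraries (SD, n = 4), with a log2 change of -0.16 (SE 0.23, adjusted p = 0.646). The SEs of Airn and Grb10 are wide beside that of Igf2r, so changes larger than these SEs can also have been missed.

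Batch moved the imprinted genes too. With plasmid held constant, 11 of the 28 genes differed between batch 2 and batch 1, 3 higher and 8 lower, beside 25.1% of all genes tested (13.4% higher and 11.6% lower). Dlk1 moved most, with a log2 difference of -1.41 (SE 0.04, adjusted p = 3.34e-17): all 4 batch 1 libraries were at 83.8 to 90.4 CPM and all 4 batch 2 libraries at 31.7 to 33.6 CPM. The log2 difference of Kcnq1ot1 was -0.77 (adjusted p = 5.01e-05) and that of Meg3 -0.35 (adjusted p = 1.67e-05). Smaller decreases were seen for Mirg at -0.23 (adjusted p = 0.0358), Igf2r at -0.19 (adjusted p = 0.00233), Nnat at -0.16 (adjusted p = 6.36e-05), Zdbf2 at -0.13 (adjusted p = 0.0349) and Rian at -0.10 (adjusted p = 0.0126). The batch call was lost for H19 without Klf4 library 2 or Klf4 library 4 (adjusted p = 0.0701 to 0.103), for Rian without Klf4 library 1, Klf4 library 2 or Klf4 library 4 (adjusted p = 0.0607 to 0.0808), for Zdbf2 without control library 2, control library 3, control library 4, Klf4 library 1 or Klf4 library 4 (adjusted p = 0.0532 to 0.184), and for Mirg without 6 of the 8 libraries in turn. Higher in batch 2 were H19 (above), Zim1 at 0.73 (adjusted p = 3.44e-09) and Gnas at 0.15 (adjusted p = 3.05e-05). The labels name the batches and do not say what differed between them.

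**Figure D5:**
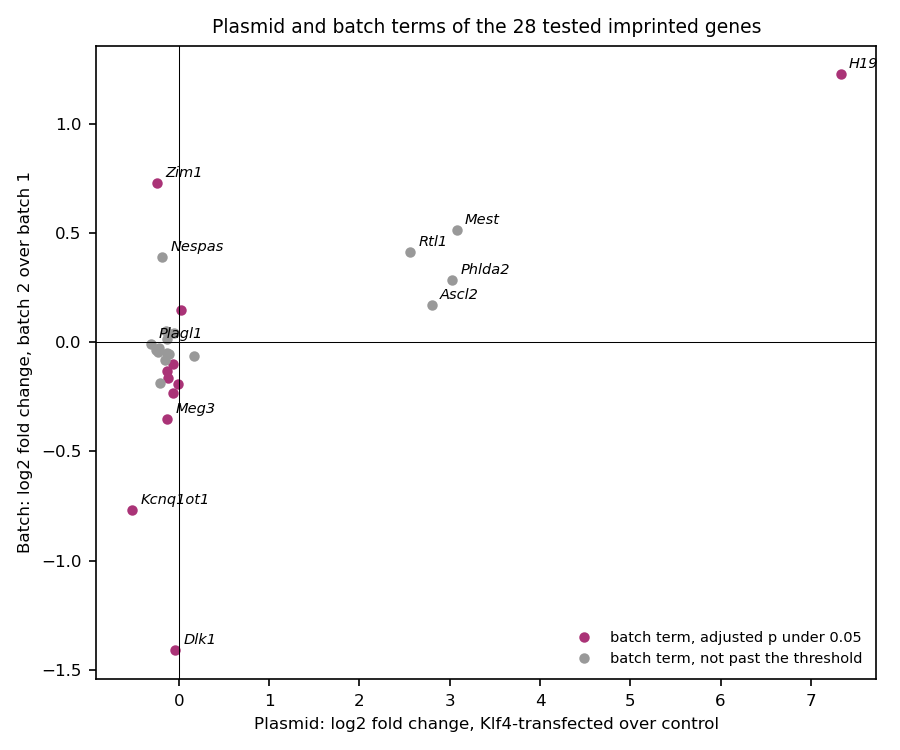
Log2 difference between batches (batch 2 over batch 1) against log2 fold change with the plasmid for the 28 tested imprinted genes, 1 point per gene, coloured by whether the batch term passed an adjusted p of 0.05. Dlk1 has the lowest batch value at -1.41 with a plasmid value of -0.04, and H19 has the highest of both.

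The plasmid effect itself was compared between batches with an interaction term. In edgeR's quasi-likelihood test 0 of the 28 imprinted genes passed, beside 0.766% of all genes tested. At an unadjusted p under 0.05 there were 5 (Meg3, Rian, Igf2r, Zdbf2 and Slc38a4). DESeq2 gave 0 calls with 4 unadjusted, and limma-voom 0 with 6 unadjusted.

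Of the 50 other imprinted genes, 40 were tested and 18 passed (45%, beside 36.6% of all genes), 11 higher and 7 lower, with a median log2 change of 0.02 beside -0.01 over all genes. Scaling on highly expressed genes gave 13 higher and 3 lower. Of the 11 higher in the main fit, Dcn, Dio3, Calcr and Tspan32 were under the test's filter in every control library. For Dcn, Dio3, Calcr and Tspan32 the filter itself asked for a difference. Slc22a18 and Sfmbt2 were under it in part of the controls and entered with the help of their Klf4 libraries. Besides Dio3, Calcr, Tspan32, Slc22a18 and Begain above, the largest changes were those of Dcn, decorin of the extracellular matrix, from 0.0461 to 17.6 CPM with a log2 change of 8.49 (SE 0.51, adjusted p = 4.45e-20), Sfmbt2, a Polycomb protein, from 0.242 to 0.712 CPM with a log2 change of 1.55 (adjusted p = 0.00158), and Cobl, an actin nucleator, from 3.06 to 6.57 CPM with a log2 change of 1.09 (adjusted p = 7.19e-09). Decorin is also a fibroblast product. Of the 5 fibroblast markers 3 were tested. Col1a1 and Pdgfra rose, Col1a2 had a log2 change of 0.09 (adjusted p = 0.734), Lum was at 0 and Col3a1 at 2 and 3 counts, and their part in the Dcn result was not tested.

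Among 26 genes that set, protect or erase imprints, 23 were tested and 15 passed, 5 higher and 10 lower (65.2%, beside 36.6% of all genes; median log2 change -0.01). The split was 6 higher and 5 lower with scaling on highly expressed genes, and 8 higher and 9 lower with the GC and length offset. Dnmt3l, the cofactor of germline methylation, went from 8 to 122 counts over the 4 libraries of a group, a log2 change of 3.78 (SE 0.59, adjusted p = 5.84e-07). It was under the test's filter in every control library, so the filter itself asked for a difference. Kdm1b, a histone demethylase needed for maternal imprints in the egg, rose from 23 to 36.4 CPM with a log2 change of 0.67 (SE 0.05, adjusted p = 1.57e-10). Uhrf1, which brings the maintenance methyltransferase to new DNA, was higher, with a log2 change of 0.23 (adjusted p = 1.29e-06), and so was Arid4a, a chromatin protein, with 0.21 (adjusted p = 6.36e-05). Dnmt3b, a de novo methyltransferase, had a log2 change of 0.23 (adjusted p = 0.0347), a call lost with the replicate block (adjusted p = 0.0544) and without control library 1, control library 4, Klf4 library 1, Klf4 library 2 or Klf4 library 4 (adjusted p = 0.0623 to 0.141). Tet1, which oxidises methylcytosine, fell from 41.9 to 34.8 CPM with a log2 change of -0.27 (SE 0.04, adjusted p = 1.51e-05). Setdb1, a histone methyltransferase of silent chromatin, was lower, with a log2 change of -0.20 (adjusted p = 2.36e-05), and Zfp568, a zinc finger repressor that acts on a placental Igf2 promoter, at -0.20 (adjusted p = 1.71e-05). Trim28, the corepressor at imprint marks, and Zfp445, a zinc finger protein that binds them, were named after their values were seen. The log2 change of Trim28 was -0.10 (adjusted p = 0.00886), a call lost with scaling on highly expressed genes (adjusted p = 0.091), and that of Zfp445 -0.20 (adjusted p = 3.74e-05).

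Of 18 genes of the insulin-like growth factor axis that Igf2 and Igf2r belong to, 15 were tested and 5 passed (33.3%, beside 36.6% of all genes), 4 higher and 1 lower (median log2 change 0.09). Of the 4 higher, Igfbp6 (3 counts over the controls) and Igf2bp3 (control mean 0.0723 CPM) lay under the filter level of 0.204 CPM in control cells. For both the filter itself asked for a difference. Igfbp6, a binding protein that prefers Igf2, went from 3 to 2740 counts, a scaled ratio of 873 (counting interval 298 to 4236, adjusted p = 2.39e-19). Igfbp3, a binding protein of the circulation, rose from 0.31 to 0.873 CPM with a log2 change of 1.49 (adjusted p = 0.000125), and Igf2bp3, which binds Igf2 mRNA, from 0.0723 to 0.429 CPM with a log2 change of 2.51 (adjusted p = 0.000272). Irs2, an insulin receptor substrate, had a log2 change of 0.11 (adjusted p = 0.00766), lost without control library 3 or Klf4 library 4 (adjusted p = 0.0527 to 0.0583) and with the GC and length offset (0.07, adjusted p = 0.0772). Without Klf4 library 4 alone, 3 genes of the axis passed. Pappa2, a protease of the binding proteins, had a log2 change of -0.08 (adjusted p = 0.0358), a call lost with the replicate block (adjusted p = 0.0646) and without control library 2, control library 4, Klf4 library 1, Klf4 library 2 or Klf4 library 4 (adjusted p = 0.0554 to 0.0717). The log2 change of Igfbp6 was the largest of the 15 tested genes, beside 0.17 for Igf2 and -0.01 for Igf2r.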

How the data were processed

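The authors deposited 1 table of raw counts per gene for 8 libraries. Per the submitters' processing notes it was made with FastQC, STAR and featureCounts on build mm10, and edgeR was used. Trimming with cutadapt is per the file's name. Annotation, strand setting and versions are not given in the sources used here. Per the labels the kit was Tecan Universal Plus mRNA-seq, and the extraction text speaks of islets although every sample is named MIN6. Gene IDs and symbols of all 55536 rows match GENCODE M21 (GRCm38), from which positions and exon overlaps were taken.

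Counts were filtered with filterByExpr (minimum count 10) and scaled by TMM (factors 0.996 to 1.01). They were fitted with edgeR 4.0.16 (glmQLFit and glmQLFTest, batch plus plasmid, all 8 libraries, R 4.3.3), with Benjamini-Hochberg adjustment over 18266 genes. SEs come from the fit's Fisher information. Printed CPM divide by the library total of the tested genes times the TMM factor. Ratios of summed counts are scaled by the groups' library totals of this kind. Their intervals are exact, at 95%, and cover counting error only. DESeq2 1.42.0 and limma 3.58.1 were alternatives. The procedure was tested on simulated data. No pair of libraries agreed within sampling noise.

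Same-numbered libraries of the 2 groups deviated together (correlations 0.61, 0.46, 0.57 and 0.52 over 10485 genes) and share a batch per the labels. After batch means were removed the correlations were -0.05, -0.05, 0.08 and 0.08.

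All imprinted genes of the set are accounted for. Of the other lists, up to 8 genes past the threshold with the largest absolute change are named, with exceptions stated. The set and the lists were chosen with earlier results of these data known. The alpha cell marker list is not reported here.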

Additional observations from a re-analysis of the deposited data

Results flagged for a closer look

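Library values far from the rest of their group were looked for in 68 groups of 4 libraries, and 7 were found where chance at 1 in 20 gives about 3.4. Of these, 4 rest on 5 counts or fewer. H19 was at 0.0207 CPM (1 count) in control library 4 and at 0 in the other controls. Peg10 was at 0.0621 CPM (3 counts) in control library 4, Magel2 at 0.0203 CPM (1 count) in control library 3 and Peg12 at 0.0948 CPM (5 counts) in Klf4 library 4, each with 0 in the rest of the group.

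Control library 2 stood apart in Peg3, at 980.8 CPM with the other controls at 893 to 905 CPM, and in Ube3a, at 105.1 CPM with the others at 95.4 to 96.9 CPM. Without it the log2 change was -0.12 for Peg3 (adjusted p = 0.00135) and -0.09 for Ube3a (adjusted p = 0.0697), so the call of Ube3a was lost. Klf4 library 2 had 45417853 counts, and the other Klf4 libraries 51891997 to 52731176.

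The effect of the plasmid differed between batches by the interaction term for Slc22a18, by 1.96 on the log2 scale (adjusted p = 0.00648), and for Klf4 itself, by 0.37 (adjusted p = 0.0057). Klf4 rose by 6.78 in batch 1 and by 7.17 in batch 2.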

How the results depend on the processing

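The fit was repeated under 19 other settings. Igf2, Impact, Peg3, Plagl1, Slc38a4, Ascl2 and Mest passed with the same direction in all 19, and H19, Phlda2 and Rtl1 in the 18 that tested them. The standard filter let H19, Phlda2 and Rtl1 in through their Klf4 libraries, and the filter of 1 CPM in 4 libraries did so for Ascl2 and Mest. Where a gene was let in this way, its passing is no further support. Meg3, Zdbf2, Zrsr1 and Ube3a each lost their call in 9 or more. With the replicate block 17 imprinted genes passed, all among the 18, and 6284 of all genes; besides Zrsr1, Dnmt3b and Pappa2 the block changed no call named in the text. Without a batch term 11 imprinted genes, 4116 of all genes, 8 imprint regulators and 3 genes of the growth factor axis passed. Requiring 1 CPM in 4 libraries left 11 imprinted genes, since H19, Phlda2 and Rtl1 were then not tested and Meg3, Zrsr1, Zdbf2 and Ube3a did not pass, and 2 genes of the axis. With no filter 1 gene (Meg3) passed the interaction test. Batch 1 alone gave 12 imprinted genes and batch 2 alone 17, and 14 passed an adjusted p of 0.01. For other changes the cause was not tested.

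Leaving out 1 library at a time gave 14 to 18 imprinted genes for the plasmid, 5889 to 7074 of all genes, 3 to 7 genes of the axis (3 without Klf4 library 4), and 7 to 11 imprinted genes for batch, the 7 without Klf4 library 4. For the interaction it gave 0 to 2 genes (Meg3 and Zdbf2 without control library 1, Meg3 and Igf2r without Klf4 library 4).

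Signs turned for genes near 0. With the GC and length offset the log2 change was -0.0150 for Gnas, 0.0124 for Igf2r, 0.0602 for Rian, 0.0144 for Ube3a and 0.000603 for Smchd1 (a called imprint regulator). Igf2r was at 0.0264 with scaling on highly expressed genes, 0.00204 with the 1 CPM filter, 0.0952 in batch 2 alone, and -0.0841 to 0.0247 with 1 library left out. In batch 1 alone Mirg was at 0.0243, Nespas at 0.266, Rian at 0.00297 and Snrpn at 0.00469. The scalings moved the median of all genes by at most 0.04. Genes under 1 CPM rest on few counts per library.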
